A study of Homo sapiens with 6 samples.

Results

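Glycolysis and hypoxia-response genes were followed in T47D cells, an established human line of luminal, estrogen receptor-positive breast cancer, that had been given an siRNA against HOTAIR-N, a variant of the lncRNA HOTAIR. The members are 40 genes listed by symbol, 26 of glycolysis and lactate handling and 14 of the hypoxia response, out of 27968 genes in the deposited tables. They were listed for their roles in these pathways, with earlier results of these data known. Of the 40, 38 had enough counts to be tested among 14919 tested genes; SLC2A3 and CA9 did not.

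The comparison held 2 groups of 3 libraries each, which the series describes as independent transfections. Every culture had RPMI medium holding 10% serum, the siRNA was delivered by RNAiMAX, a lipid reagent, and total RNA was taken 48 hours later. One group received a control siRNA and the other the HOTAIR-N siRNA. The sources used here do not say how many siRNA sequences were used against HOTAIR-N.

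Glycolysis splits glucose into pyruvate and yields ATP and NADH on the way. Lactate dehydrogenase turns pyruvate into lactate, which monocarboxylate transporters carry out of the cell, while pyruvate dehydrogenase passes it on to mitochondria unless a PDK kinase holds it back. Hypoxia-inducible factors (HIFs) pair an oxygen-sensitive alpha subunit with ARNT; with oxygen present, EGLN hydroxylases mark the alpha subunit and VHL directs its destruction. When oxygen is short, HIFs raise many glycolytic genes along with genes of blood vessel growth, pH control and mitochondrial turnover, and many breast cancers use glycolysis heavily even with oxygen.

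HOTAIR as a whole gene had 577, 540 and 581 expected counts after the control siRNA (replicates 1, 2 and 3) and 206, 185 and 196 after the HOTAIR-N siRNA, 34.7% of control in CPM (counts scaled to library size with TMM factors). HOTAIR-N was not matched to a transcript, so its own level was not measured and the gene's level checks the labels only in part. Libraries held 31777001 to 36707169 expected counts, so that 1 CPM stood for 32.9 to 36.4 counts. All 10 markers of luminal breast epithelium were measured, and 6 fell and 2 rose (edgeR, adjusted p below 0.05). That is 80% of them, against 71.1% of all tested genes that passed the same cut. ESR1, the estrogen receptor, fell to 32.1%, PGR to 36.4% and KRT18 to 65.8% of control, while CDH1 rose 1.86-fold and TFF1 3.07-fold. The part of these markers in the results was not tested. The summed level of 5 leukocyte markers was at most 0.89 TPM, RSEM's length-corrected unit, and that of 4 endothelial markers at most 0.07. The 5 fibroblast markers summed to 8.85 to 10.2 TPM in control libraries and 7.70 to 8.95 TPM in HOTAIR-N libraries. Nearly all of that was COL1A1, at a mean of 9.37 and 8.01 TPM, and each of the others averaged at most 0.28 TPM. Control replicate 2 and HOTAIR-N replicate 3 stood apart from the other libraries of their groups, with a chi-square per degree of freedom of 6.99 to 9.02 against 2.21 and 2.37 for the other pairs. Counts of called members are given with and without them.

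Among the abundant members the largest changes were a fall of PFKFB3, the kinase that makes phosphofructokinase's strongest activator, to 31.4% of control, and of PGAM1, phosphoglycerate mutase, to 49.96% of control. LDHA, both lactate transporters, the glucose transporter SLC2A1, the main hexokinase HK1 and both HIF alpha subunits fell to between 57.6% and 65.0% of control. Against these, the muscle-type phosphofructokinase PFKM rose 1.68-fold, the low-level HIF targets EGLN3 and ANKRD37 rose 4.47-fold and 2.19-fold while the HIF targets NDRG1 and VEGFA fell to 49.5% and 83.3%, and GAPDH, PGK1 and TPI1 in the middle of the pathway did not pass the test.

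Genes were called at an adjusted p (edgeR's quasi-likelihood test, Benjamini-Hochberg over all tested genes) below 0.05. Among the 38 tested members 29 were called, 9 higher and 20 lower, which is 76.3% of them. Over all tested genes 71.1% were called, 36.2% higher and 34.8% lower, so a call as such was about as common among the members as elsewhere. Of the members 23.7% rose and 52.6% fell. Calls with at least a 1.5-fold change were made for 15 members, 4 higher and 11 lower (39.5%, against 32.7% of all tested genes), and 28.9% of members against 15.1% of all tested genes were lower by that much. At least a 2-fold change was called in 6 of the 38 tested members, PFKFB3, PGAM1, NDRG1, LDHB, EGLN3 and ANKRD37. That is about the same share as over all tested genes (15.8%). These shares are descriptions, and no test compared the members with other genes. The median log2 fold change was -0.15 over the members and 0.02 over all tested genes, whose middle 50% ran from -0.34 to 0.41. In 28 members (73.7%, against 73.4% of all tested genes) the 3 libraries of one group did not overlap those of the other.

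By pathway, the 25 tested glycolysis members divided into 6 higher, 13 lower and 6 not called, with a median log2 fold change of -0.16. The 13 tested hypoxia-response members divided into 3 higher, 7 lower and 3 not called, with a median of -0.14. Without the 2 libraries that stood apart, the glycolysis members came to 7 higher and 13 lower and the hypoxia-response members to 3 higher and 8 lower. Scaling by library totals alone left 4 hypoxia-response members lower. In bulk RNA, less transcript per cell and fewer cells that make it cannot be told apart.

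**Figure D1:**
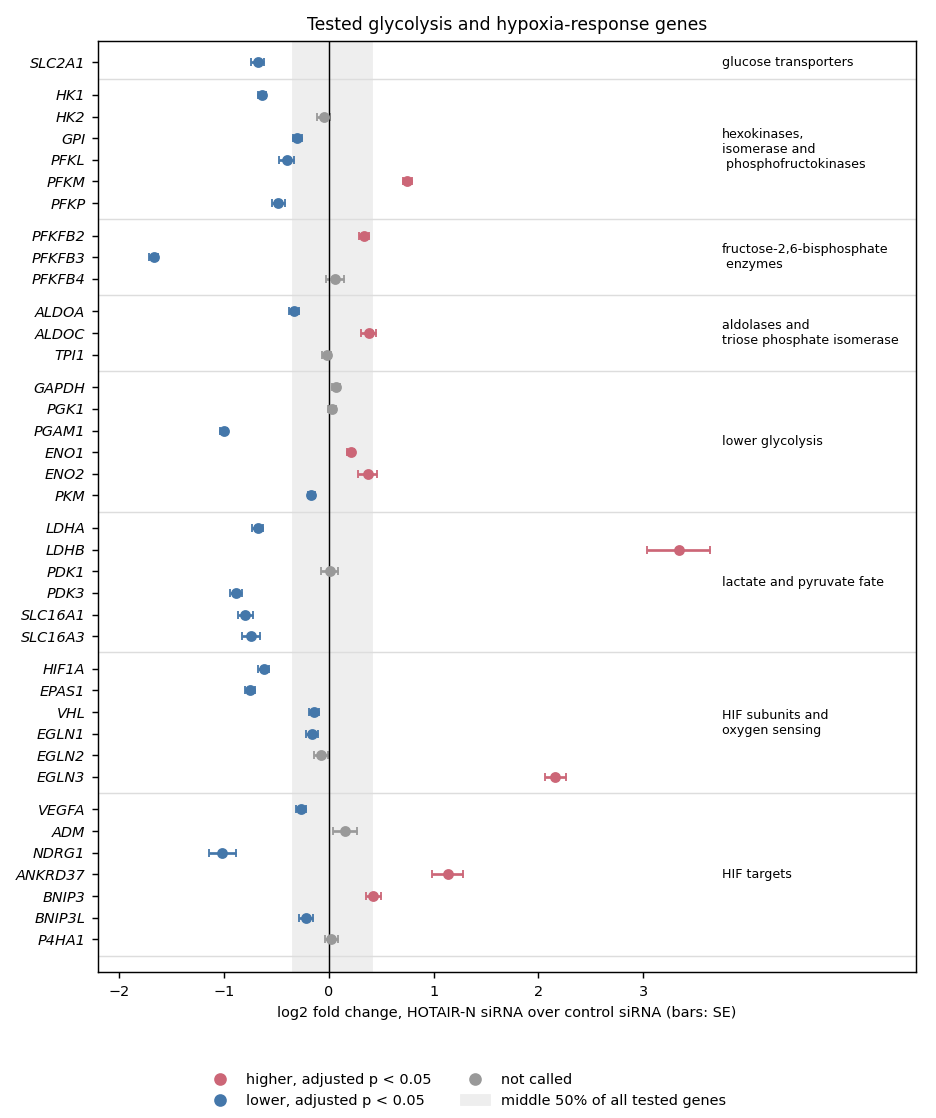
Log2 fold change (HOTAIR-N siRNA over control siRNA) of each of the 38 tested members with its standard error, grouped by role; red points are called higher, blue points lower, grey points not called, and the grey band holds the middle 50% of all tested genes. PFKFB3, PGAM1 and NDRG1 lie farthest to the left, and LDHB, EGLN3 and ANKRD37 farthest to the right.

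SLC2A1 (GLUT1) carries glucose into most cells at a basal rate. Its level was 67.2, 60.8 and 60.2 CPM in the control libraries and 42.1, 38.3 and 37.2 CPM with the HOTAIR-N siRNA. Every HOTAIR-N library lay below every control library, and the mean fell from 62.7 ± 3.88 to 39.2 ± 2.57 CPM (SD, n = 3; log2 fold change -0.68, SE 0.06, edgeR adjusted p = 1.4e-06). SLC2A3 (GLUT3), the high-affinity transporter of neurons, was too low to test, with 0, 1 and 2 counts in the control libraries and 48, 12 and 8 with the HOTAIR-N siRNA. The 48 counts of HOTAIR-N replicate 1 made up most of that signal. These 2 transporters together came to 64.7% of the control level in TPM. Other transporters of this family, which are no members here and were not picked by smallest p, went both ways. SLC2A6 stood at a like level to SLC2A1 in control cells, 34.6 TPM against 32.9 TPM. It rose 1.31-fold (edgeR adjusted p = 0.001) to 46.3 TPM, against 21.0 TPM for SLC2A1. SLC2A8 fell to 63.5% of control (adjusted p = 2.1e-05). SLC2A10 rose 2.70-fold (adjusted p = 1e-06), from a mean of 1.33 to 3.58 CPM. SLC2A4 and SLC2A12 were not called. The part of these genes in glucose uptake was not tested.

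Hexokinases trap glucose in the cell as a phosphate. HK1, the housekeeping form, gave 286, 278 and 291 CPM in control libraries and 185, 183 and 182 CPM with the HOTAIR-N siRNA. The groups did not overlap, and the fall from 285 ± 6.30 to 183 ± 1.45 CPM (SD, n = 3) was many times either SD (log2 fold change -0.64, SE 0.04, edgeR adjusted p = 2.4e-08). HK2, the inducible form and a HIF target, ran from 22.0 to 25.05 CPM over all 6 libraries and was not called (log2 fold change -0.05, SE 0.06, adjusted p = 0.51). HK1 held 96.0% ± 0.25 of the hexokinase TPM in control libraries and 94.1% ± 0.29 in the others, so the summed hexokinase level fell largely with it, to 67.1% of control. GPI, the isomerase that turns glucose phosphate into fructose phosphate, fell to 81.2% of control (adjusted p = 8.7e-05).

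Phosphofructokinase commits sugar to glycolysis as a tetramer of muscle (PFKM), liver (PFKL) and platelet (PFKP) subunits, and its genes moved in opposite directions. PFKM rose from 122, 119 and 121 CPM to 204, 207 and 198 CPM (log2 fold change 0.75, SE 0.04, edgeR adjusted p = 9.4e-09). PFKP, the most abundant form in control cells, fell from 175, 157 and 161 CPM to 124, 122 and 107 CPM (log2 fold change -0.48, SE 0.06, adjusted p = 1.9e-05). PFKL fell to 75.7% of control (adjusted p = 0.00039). In none of the 3 genes did the groups overlap.

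Per length, the order of the 3 subunits turned over. In control cells PFKP stood at 122 ± 7.61 TPM, PFKL at 89.1 ± 7.63 and PFKM at 72.7 ± 1.24 (SD, n = 3). With the HOTAIR-N siRNA PFKM led at 125 ± 2.38 TPM, before PFKP at 88.9 ± 6.19 and PFKL at 68.8 ± 6.27. In either group no library of one subunit overlapped those of another. The PFKM share of the family went from 25.7% ± 1.00 to 44.3% ± 1.65, while the family total was 284 ± 15.9 TPM before and 283 ± 14.4 TPM after. An exact permutation test of the PFKM share, two-sided, gave p = 0.1, the smallest that 3 libraries against 3 allow. PFKM exons overlap those of SENP1 on the opposite strand, and SENP1 went the other way, from 24.2 to 14.3 TPM. The sources used here do not say whether reads were counted by strand, and the part of SENP1 reads in the PFKM counts was not tested.

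PFKFB enzymes make or remove fructose 2,6-bisphosphate, the activator of phosphofructokinase, and PFKFB3 has the highest kinase activity of the family. PFKFB3 gave 396, 375 and 380 CPM in the control libraries and 124, 114 and 123 CPM with the HOTAIR-N siRNA. No other member fell as far: the mean went from 383 ± 11.1 to 120 ± 5.59 CPM (SD, n = 3; log2 fold change -1.67, SE 0.05, edgeR adjusted p = 6.6e-11). Its main transcripts fell alike, NM_001145443 by 1.75 and NM_004566 by 1.70 on the log2 scale. PFKFB2, the heart form, rose from between 68.5 and 73.3 CPM to between 86.1 and 91.3 CPM (1.26-fold, adjusted p = 6.2e-05). PFKFB4 was not called (log2 fold change 0.06, SE 0.09, adjusted p = 0.55). Together the 3 fell to 46.0% of the control TPM, and the PFKFB3 share of them went from 83.6% ± 0.53 to 58.1% ± 0.96 (exact permutation p = 0.1).

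The 7-mer GACCAAT was picked in earlier work from these same fold changes over all genes, so what follows is a description and no independent support. It occurs in the GENCODE v29 3′ UTRs of 4 of the 40 members (10%) and of 6.77% of 13239 tested genes: PFKFB2, PFKFB3, PDK1 and NDRG1. The carriers did not move alike, since PFKFB3 and NDRG1 fell, PFKFB2 rose and PDK1 was not called. The sites of the first 3, in the longest annotated UTR and with the 7-mer in capitals, show how the same letters sit in genes that fell, rose or were not called.
PFKFB2: ggatatctgtGACCAATgtttacctac
PFKFB3, upstream site: aaataacgggGACCAATatttttaact
PFKFB3, downstream site: gcagttgccaGACCAATaaaatacc
PDK1, upstream site: aatattaataGACCAATcttgtttatg
PDK1, downstream site: taaatttctaGACCAATttgaggagaa

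Aldolase cleaves the doubly phosphorylated sugar. ALDOA, the muscle and ubiquitous form, fell from 1155, 1002 and 1102 CPM to 880, 886 and 823 CPM (log2 fold change -0.33, SE 0.05, edgeR adjusted p = 8.4e-05). Its groups did not overlap, although the control libraries had an SD of 77.8 CPM. ALDOC, the brain form, rose to 130.1% of control (adjusted p = 0.00036), from between 54.9 and 64.0 CPM to between 72.2 and 82.7 CPM. ALDOA still held 92.2% of the family TPM after the HOTAIR-N siRNA, against 95.1% before (exact permutation p = 0.1). TPI1, triose phosphate isomerase, was not called (log2 fold change -0.02, SE 0.04, adjusted p = 0.68).

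In lower glycolysis neighbouring steps behaved differently. GAPDH, the most abundant member at 1886 ± 64.6 TPM in control libraries and 2021 ± 48.5 TPM with the HOTAIR-N siRNA, ran from 1115 to 1180 CPM and from 1164 to 1235 CPM. It was not called (log2 fold change 0.07, SE 0.04, edgeR adjusted p = 0.093), but was called higher under scaling by library totals alone (0.17, adjusted p = 0.0015) or by the upper quartile (0.13, adjusted p = 0.0077). PGK1, phosphoglycerate kinase, was likewise not called (0.03, SE 0.04, adjusted p = 0.44) and was called higher under the same 2 scalings (0.13, adjusted p = 0.0055, and 0.09, adjusted p = 0.042).

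PGAM1 moves the phosphate of phosphoglycerate to the neighbouring carbon. Its level was 873, 875 and 850 CPM in the control libraries and 433, 426 and 439 CPM with the HOTAIR-N siRNA. The groups were far apart, at 866 ± 13.8 and 433 ± 6.87 CPM (SD, n = 3; log2 fold change -1.0, SE 0.03, edgeR adjusted p = 2.5e-10). Per length, PGAM1 went from 937 ± 18.4 to 478 ± 9.17 TPM (SD, n = 3), the largest fall in TPM among the 6 most abundant members of control cells. PGAM4, a near-identical gene with which reads could be shared, was listed at 0.61 and 0.32 TPM.

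Enolase and pyruvate kinase close the pathway. ENO1, the ubiquitous enolase, rose from 1150, 1090 and 1134 CPM to 1342, 1305 and 1252 CPM (1.16-fold, log2 fold change 0.21, SE 0.04, edgeR adjusted p = 0.00027). ENO1-AS1, which overlaps it on the opposite strand, was at 1.3 and 3.62 TPM, where ENO1 was at 1280 and 1509 TPM. ENO2, the neuronal enolase, rose 1.29-fold (adjusted p = 0.0029) at levels of 5.99 to 9.01 CPM. PKM fell to 89.2% of control (log2 fold change -0.16, SE 0.04, adjusted p = 0.0014) and was not called under scaling by library totals alone (adjusted p = 0.13). The transcript for the M2 form, NM_002654, held 95.1% ± 1.47 of PKM in control libraries and 95.4% ± 0.84 with the HOTAIR-N siRNA.

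Summed over the 17 enzyme genes from hexokinase to lactate dehydrogenase, the level was 8731, 8207 and 8360 TPM in the control libraries and 7853, 7753 and 7553 TPM with the HOTAIR-N siRNA, 91.5% of control. These genes made up 0.843% of all TPM before and 0.772% after. The sum is led by the abundant genes GAPDH, ENO1 and ALDOA, so it moved less than PGAM1 or LDHA did.

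**Figure D2:**
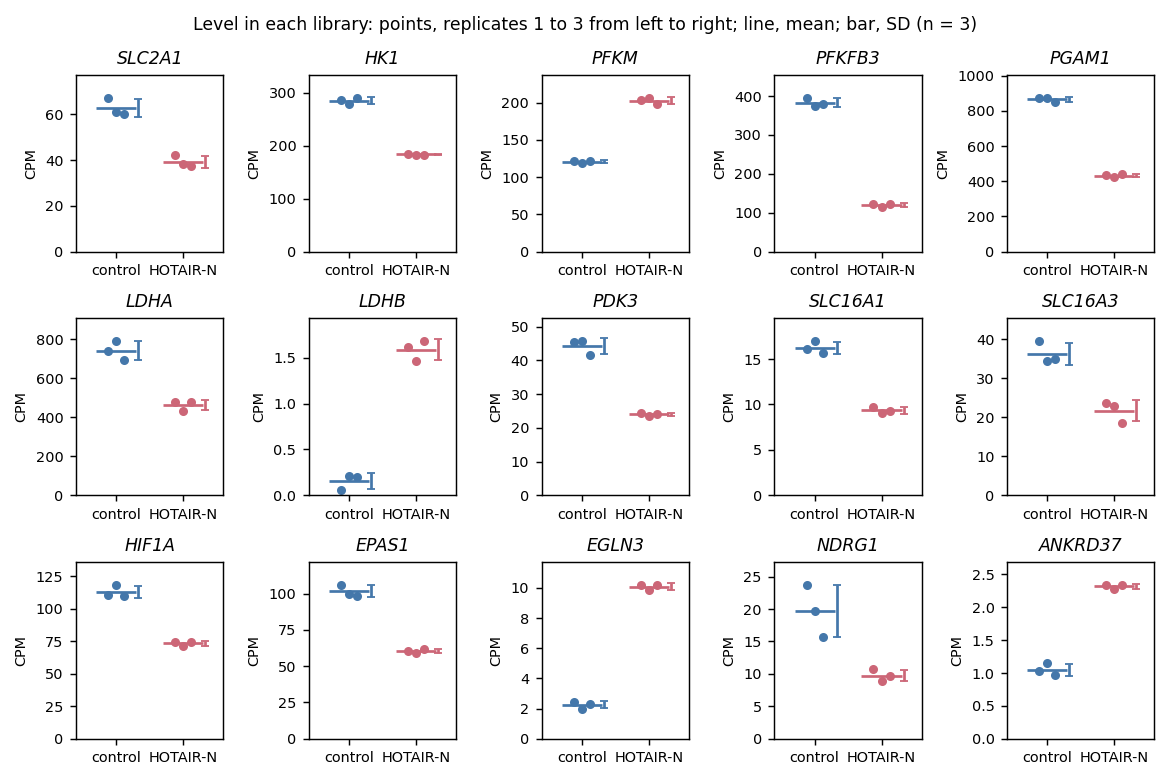
TMM-scaled CPM in each library for the 15 members called with at least a 1.5-fold change, control siRNA in blue and HOTAIR-N siRNA in red; points are replicates 1 to 3 from left to right, lines the mean, bars the SD (n = 3), and every axis starts at 0. In all 15 the groups do not overlap, which their choice by call and fold change makes likely. Over all tested genes 73.4% do not overlap. NDRG1 has the widest control spread for its level, from 15.7 to 23.8 CPM, apart from LDHB at 0.0560 to 0.208 CPM.

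Lactate dehydrogenase is a tetramer of A and B subunits. LDHA, which favours the making of lactate, fell from 740, 791 and 694 CPM to 478, 433 and 481 CPM (62.6% of control, log2 fold change -0.68, SE 0.05, edgeR adjusted p = 2.8e-07). LDHB was close to absent in control cells, at 0.0560, 0.208 and 0.200 CPM, and reached 1.62, 1.46 and 1.68 CPM with the HOTAIR-N siRNA. That is a 10.1-fold rise (log2 fold change 3.34, SE 0.30, adjusted p = 8.5e-07) from 2 to 7 counts per control library to 48 to 59 counts. It left LDHA with 99.4% of the family TPM, against 99.96% before (exact permutation p = 0.1), and the family total at 64.2% of control.

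Both lactate transporters fell. SLC16A1 (MCT1) gave 16.1, 17.0 and 15.6 CPM in control libraries and 9.74, 9.01 and 9.30 CPM with the HOTAIR-N siRNA (57.6% of control, log2 fold change -0.80, SE 0.07, edgeR adjusted p = 6.4e-07). SLC16A3 (MCT4), the low-affinity exporter of glycolytic cells, gave 39.5, 34.5 and 34.9 CPM and then 23.6, 23.0 and 18.6 CPM (59.8% of control, log2 fold change -0.74, SE 0.09, adjusted p = 1.1e-05). The SLC16A1 share of the pair was 18.4% ± 1.41 before and 17.9% ± 1.94 after (exact permutation p = 0.8). SLC16A3 exons overlap those of CSNK1D on the opposite strand, which went from 57.5 to 44.7 TPM. The part of CSNK1D reads in the SLC16A3 counts was not tested.

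PDK kinases switch pyruvate dehydrogenase off. PDK3 fell from 45.4, 45.7 and 41.4 CPM to 24.3, 23.5 and 24.0 CPM (54.2% of control, log2 fold change -0.88, SE 0.06, edgeR adjusted p = 5.4e-08). PDK1, the HIF-induced kinase, lay between 21.5 and 26.4 CPM in all libraries and was not called (log2 fold change 0.01, SE 0.08, adjusted p = 0.94). Per length the PDK3 fall was smaller, from 15.5 ± 0.387 to 12.2 ± 0.796 TPM (SD, n = 3), and PDK1 went from 40.6% ± 1.94 to 47.4% ± 2.58 of the pair (exact permutation p = 0.1). The PDK3 transcripts differ in length and in how they moved. NM_001142386, of 12779 bases, fell by 1.18 on the log2 scale (adjusted p = 0.00023), while NM_005391, of 1803 bases, was not called (-0.09, adjusted p = 0.63).

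**Figure D3:**
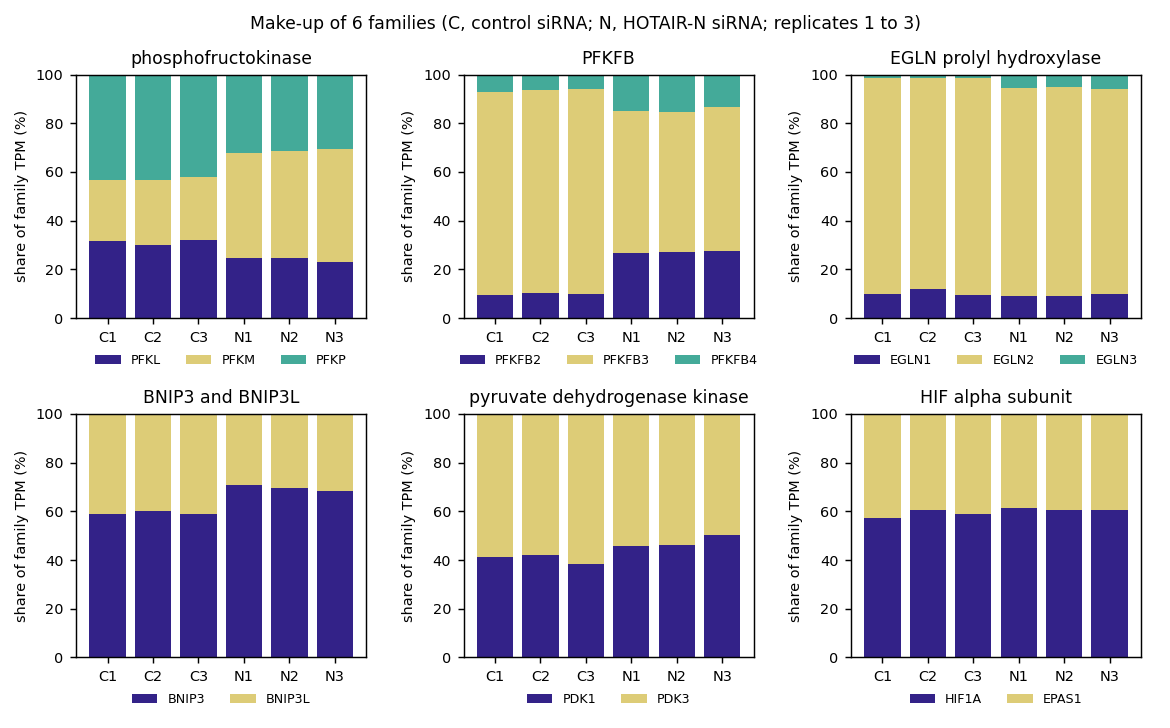
Share of each gene in the TPM summed over the listed members of its family in every library (C1 to C3, control siRNA; N1 to N3, HOTAIR-N siRNA). Genes that are no members are not counted, among them PDK2, at 20.6 TPM in control cells. The shift is widest for phosphofructokinase, where PFKM went from 25.7% to 44.3%, and for the PFKFB enzymes, where PFKFB3 went from 83.6% to 58.1%, and the HIF alpha subunits moved least of the 6 families shown.

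HIF alpha subunits are the oxygen-regulated part of the factor, and both genes fell. HIF1A, the widely expressed form, gave 111, 118 and 110 CPM in control libraries and 74.5, 71.1 and 74.6 CPM with the HOTAIR-N siRNA (65.0% of control, log2 fold change -0.62, SE 0.05, edgeR adjusted p = 2.6e-07). EPAS1 (HIF-2 alpha), first known from endothelium, gave 106, 100.1 and 98.7 CPM and then 60.2, 59.2 and 62.1 CPM (59.5% of control, log2 fold change -0.75, SE 0.05, adjusted p = 5.1e-08). Summed per length they came to 64.0% of control, with HIF1A at 58.8% ± 1.53 of the pair before and 60.9% ± 0.40 after (exact permutation p = 0.1). HIF activity is set largely by protein stability, which RNA levels do not measure.

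The oxygen sensors did not move as a group. EGLN3, a hydroxylase gene that HIF itself induces, rose from 2.47, 2.00 and 2.29 CPM to 10.2, 9.83 and 10.2 CPM, with no overlap (4.47-fold, log2 fold change 2.16, SE 0.10, edgeR adjusted p = 2.5e-09). EGLN2, the most abundant of the 3, was at 135, 116 and 133 CPM and then 122, 129 and 114 CPM and was not called (log2 fold change -0.07, SE 0.07, adjusted p = 0.32), but was called lower without control replicate 2 (-0.15, adjusted p = 0.022). EGLN1, the main HIF hydroxylase of most cells, fell to 89.3% of control (adjusted p = 0.021) and VHL to 90.8% (adjusted p = 0.017). Neither EGLN1 nor VHL was called under scaling by library totals alone (adjusted p = 0.3 and 0.41) or by the upper quartile (0.1 and 0.12), nor without HOTAIR-N replicate 1 (0.078 and 0.075). The EGLN3 share of the family TPM went from 1.24% ± 0.03 to 5.65% ± 0.43, and the family total was 134 ± 9.58 TPM before and 135 ± 6.84 TPM after.

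Other HIF targets also divided. NDRG1, a stress-induced cytoplasmic protein strongly raised by hypoxia, fell from 23.8, 19.7 and 15.7 CPM to 10.7, 8.92 and 9.62 CPM (49.5% of control, log2 fold change -1.02, SE 0.13, edgeR adjusted p = 2e-05). ANKRD37, a small ankyrin-repeat protein induced by HIF, rose from 1.02, 1.149 and 0.973 CPM to 2.33, 2.27 and 2.34 CPM (log2 fold change 1.13, SE 0.15, adjusted p = 2.8e-05). The groups overlapped in neither gene, though the ANKRD37 levels stood on few counts.

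BNIP3 and BNIP3L are paired receptors for the removal of mitochondria, both raised by hypoxia, and they were called in opposite directions. BNIP3 rose from 40.8, 42.4 and 34.8 CPM to 54.5, 51.1 and 52.9 CPM (1.34-fold, log2 fold change 0.43, SE 0.07, edgeR adjusted p = 0.00018). BNIP3L gave 64.5, 63.9 and 55.5 CPM and then 51.0, 51.3 and 55.9 CPM (86.1% of control, log2 fold change -0.22, SE 0.07, adjusted p = 0.011). It was the single called member whose groups overlapped, and it was not called without control replicate 1 (adjusted p = 0.052) or under scaling by library totals alone (adjusted p = 0.13). The BNIP3 share of the pair went from 59.4% ± 0.70 to 69.5% ± 1.28 (exact permutation p = 0.1).

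VEGFA, the growth factor of blood vessels, fell to 83.3% of control (log2 fold change -0.26, SE 0.05, edgeR adjusted p = 0.00058). ADM, the vessel-widening peptide adrenomedullin, was not called (0.16, SE 0.11, adjusted p = 0.23), nor was P4HA1, a collagen prolyl hydroxylase (0.02, SE 0.06, adjusted p = 0.73). CA9, a membrane carbonic anhydrase that serves as a standard hypoxia marker, was too low to test, at 0.258 ± 0.0708 CPM in control libraries and 0.276 ± 0.122 CPM with the HOTAIR-N siRNA (SD, n = 3). These levels stood on 6 to 15 counts per library, below the count filter, so no difference was tested.

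HIFs bind DNA at the core ACGTG or GCGTG, and promoters are printed here because targets that share this core moved in opposite directions. RefSeq promoter windows of 300 bases (GRCh38.p14, 250 before to 50 after the start) matched 33 of the 40 members, and 25 of them (75.8%) held at least 1 core on either strand, against 48.4% of all 27305 promoters and 62.4% of 11143 promoters of tested genes. A core was found in 6 of 8 members called higher, 11 of 15 called lower and 7 of 9 not called. The motif CACGTG, which holds ACGTG on both strands and so counts as 2 cores, was in 6 members (18.2%) against 10.1% of the promoters of tested genes. It was in 3 of 8 members called higher, 1 of 15 called lower and 2 of 9 not called, with no test of that split. A match describes letters only and is not a bound site. Below are the 250 bases before the start, 5′ to 3′ on the gene's strand, with the cores of either strand in capitals.
LDHA, chr11:18394313-18394562, plus strand: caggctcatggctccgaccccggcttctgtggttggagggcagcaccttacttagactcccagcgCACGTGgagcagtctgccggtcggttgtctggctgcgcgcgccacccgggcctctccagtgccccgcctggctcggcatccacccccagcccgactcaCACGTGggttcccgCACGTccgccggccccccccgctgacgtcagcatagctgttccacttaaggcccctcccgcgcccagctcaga
BNIP3, chr10:131981924-131982173, minus strand: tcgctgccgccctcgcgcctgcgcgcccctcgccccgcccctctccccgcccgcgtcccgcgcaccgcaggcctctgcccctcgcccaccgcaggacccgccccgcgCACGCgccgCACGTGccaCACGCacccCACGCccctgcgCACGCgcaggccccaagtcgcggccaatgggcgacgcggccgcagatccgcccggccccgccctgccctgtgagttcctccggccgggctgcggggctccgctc
ANKRD37, chr4:185396591-185396840, plus strand: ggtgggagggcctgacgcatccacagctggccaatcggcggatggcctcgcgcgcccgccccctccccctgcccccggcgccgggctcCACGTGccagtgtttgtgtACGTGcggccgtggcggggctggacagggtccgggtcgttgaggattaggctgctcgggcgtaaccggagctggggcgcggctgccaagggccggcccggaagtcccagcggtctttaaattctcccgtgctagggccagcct
EGLN3, chr14:33951075-33951324, minus strand: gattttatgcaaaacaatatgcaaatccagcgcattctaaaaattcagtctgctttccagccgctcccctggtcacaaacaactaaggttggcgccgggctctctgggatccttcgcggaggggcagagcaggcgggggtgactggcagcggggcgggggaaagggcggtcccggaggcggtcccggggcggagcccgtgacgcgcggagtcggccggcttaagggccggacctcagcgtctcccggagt

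LDHA, which fell, has 5 cores in this stretch, while BNIP3 and ANKRD37, which rose, have 6 and 3. EGLN3, the hypoxia-response member with the largest rise, has none there. The 4 genes were chosen for printing because genes with a core both rose and fell, so that split is no independent result. The HIF targets NDRG1 and VEGFA, which fell, were among the members without a matched window.

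Transcript tables listed 175 transcripts of the members among 70006, and 116 had enough counts to be tested. Of these 37 were called, 13 higher and 24 lower (31.9%, against 32% of all tested transcripts). Usage, the share of a transcript in its gene, was tested with limma on log2 shares in 26 members and changed in 4 of them (15.4%, against 15.5% of all genes tested for it). These were PDK3, P4HA1, HIF1A and PFKM. With the replicate number as a block 0 of the 4 were called, with edgeR's diffSpliceDGE only HIF1A (adjusted p = 0.025, against 0.96 for PDK3 and 1 for P4HA1 and PFKM), and with any 1 library left out between 1 and 3.

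By the limma test P4HA1 changed in transcript make-up while its total was not called. NM_000917 went from 49.9%, 50.02% and 49.2% of the gene to 39.3%, 36.5% and 40.9% (limma adjusted p = 0.024), and NM_001017962 from 42.3%, 41.3% and 47.6% to 55.6%, 59.4% and 55.4% (adjusted p = 0.042). Both are annotated at 2846 bases, and in neither did the groups overlap. In PDK3 the short transcript NM_005391 rose from 67.2% ± 1.68 to 81.2% ± 1.99 of the gene (SD, n = 3; adjusted p = 0.014). The remaining 2 shifts concerned minor forms, since NM_001166686 of PFKM went from 1.5% to 0.317% (adjusted p = 0.043) and NM_001243084 of HIF1A from 0.873% to being listed at 0 in all 3 HOTAIR-N libraries (adjusted p = 0.013).

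**Figure D4:**
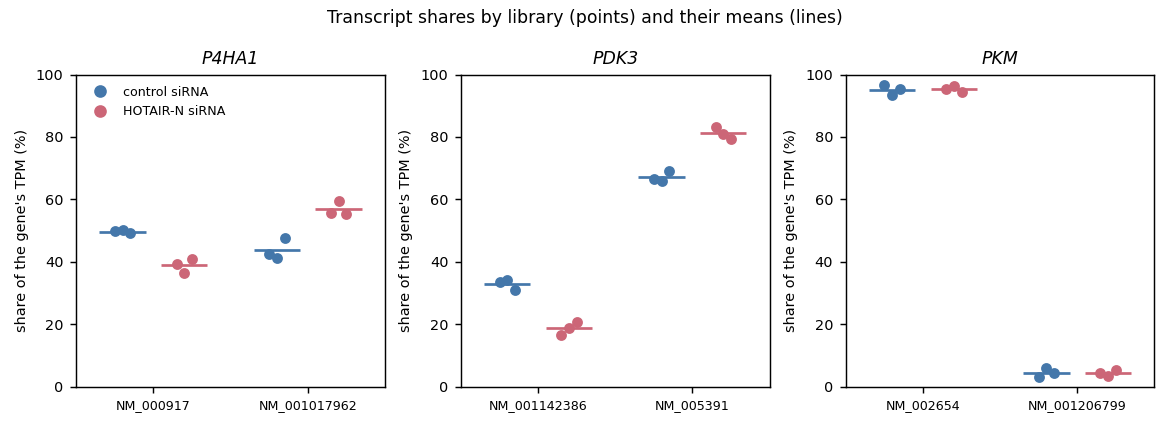
Share of the gene's TPM held by the main transcripts of P4HA1, PDK3 and PKM in each library (points) with the mean (line), control siRNA in blue and HOTAIR-N siRNA in red. P4HA1 and PDK3 show no overlap between groups in either transcript, whereas the PKM shares overlap.

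Other genes of the same pathways were taken from lists by function. Among 27 further tested genes of glycolysis and pyruvate handling 11 rose and 9 fell (74.1% called, against 71.1% of all tested genes), with a median log2 fold change of -0.04. The 3 with the smallest p belong to the pyruvate dehydrogenase complex or act on it. PDHX, its anchoring subunit, went from 45.6 ± 1.33 to 106 ± 5.12 CPM (2.32-fold, edgeR adjusted p = 1.5e-09), DLD, its dehydrogenase subunit, rose 1.91-fold (adjusted p = 2.8e-08) and PDP1, the phosphatase that switches it on, rose 2.36-fold (adjusted p = 9.1e-08). Other genes of the complex and its regulators, chosen after their values were seen, fell, rose or were not called. PDPR, a regulator of the phosphatase, fell to 68.8% (adjusted p = 1.2e-07) and PDHA1, a catalytic subunit, to 89.1% of control (adjusted p = 0.0026), DLAT rose 1.33-fold (adjusted p = 5.9e-06), and PDHB (adjusted p = 0.47), PDP2 (0.099) and the kinase PDK2 (0.2) were not called. The kinase PDK4 fell to 47.5% of control (edgeR adjusted p = 0.0004), at a mean of 1.93 CPM in control libraries and 0.913 CPM with the HOTAIR-N siRNA. PDK2 stood at 20.6 TPM in control cells, above PDK3 and PDK1, and at 19.0 TPM with the HOTAIR-N siRNA.

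Among 12 further regulators of HIF 3 rose and 4 fell (58.3% called, against 71.1% of all tested genes, median 0.01). HIF1AN, the asparagine hydroxylase that blocks HIF coactivators, rose 1.29-fold (edgeR adjusted p = 4.6e-06), ARNT, the partner subunit, rose 1.25-fold (adjusted p = 5.1e-05), and ELOC, a part of the VHL ligase, fell to 77.7% of control (adjusted p = 2.8e-05). Among 31 further HIF targets 13 rose and 9 fell (71% called, against 71.1% of all tested genes, median 0.10). TGFA, an EGF receptor ligand, fell to 30.9% (adjusted p = 5.6e-10), STC1, a secreted glycoprotein, to 39.3% (adjusted p = 3.2e-09) and CA12, a carbonic anhydrase of estrogen receptor-positive breast cells, to 65.5% of control (adjusted p = 4.5e-09). Of this list 9 rose and 5 fell by at least 1.5-fold (29% and 16.1%, against 17.5% and 15.1% of all tested genes). Among the 7 tested HIF targets of the members 1 rose and 1 fell by that much (14.3% each). Among all 13 tested hypoxia-response members 2 rose and 3 fell by that much (15.4% and 23.1%). No test compared these lists with each other or with all genes. Among the further targets that rose, named after their values were seen, were PPP1R3C, a glycogen-targeting phosphatase subunit (6.57-fold, adjusted p = 1.3e-06), CCNG2, an atypical cyclin (2.02-fold, adjusted p = 8.5e-08), and HILPDA, a lipid droplet protein (1.94-fold, adjusted p = 1.1e-08). The PPP1R3C rise stood on few counts, 11, 5 and 15 in the control libraries and 71, 62 and 72 with the HOTAIR-N siRNA.

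**Figure D5:**
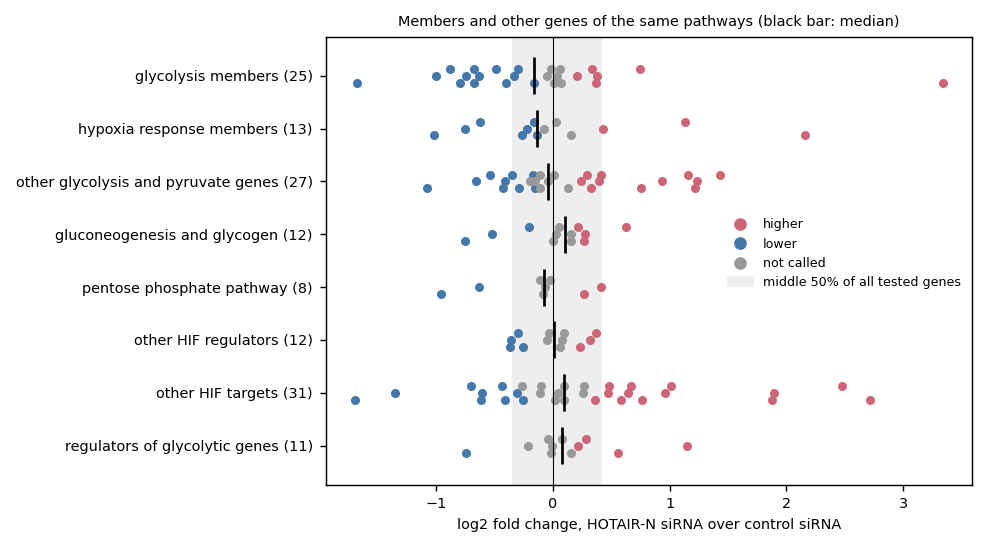
Log2 fold change of every tested member and of the tested genes of 6 further lists, with the number of genes in brackets and a black bar at each median; red is called higher, blue lower, grey not called, and the band holds the middle 50% of all tested genes. Each list has genes on both sides of 0, and the medians lie between -0.16 and 0.11.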

How the data were processed

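RNA of 6 T47D libraries was sequenced. Per the submitters' processing notes, reads were processed with STAR 2.6.0c and RSEM 1.3.0 and the build was hg19. Per the file headers, the deposited tables hold expected counts and TPM per gene and transcript, and the share of a transcript in its gene as a percent (IsoPct). The library kit keeps strand, but whether the authors counted by strand, and their annotation version, are not given in any source used here.

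Expected counts were rounded, filtered with filterByExpr (minimum count 10, minimum total 15), scaled by TMM and tested with edgeR 4.0.16 (R 4.3.3, quasi-likelihood, no covariate), adjusted over all genes or transcripts and called below 0.05. Usage was tested with limma 3.58.1 on log2 shares with 0.5 added to transcript and gene counts. Shares of 12 gene families in TPM were tested with exact two-sided permutation tests, of which 11 gave p = 0.1, the smallest possible (0.109 adjusted over the 12). Values per library are printed for called members with a log2 change of at least 0.5 and for the leading form of each family, and from each further list the 3 genes with the smallest p are named. Members and lists were chosen with earlier results of these data known.

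The steps were tested on simulated data. Alternatives were other scalings, filters, DESeq2 1.42.0, limma-voom, a replicate block, left-out libraries and stricter call rules. The p-values set the difference between groups against the spread between these transfections, and they do not cover differences between siRNA sequences. Promoter windows come from a RefSeq table and UTRs from GENCODE v29, whose build differs from that of the counts, so they were joined by gene symbol.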

Additional observations from a re-analysis of the deposited data

How the results depend on the processing

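Of the 29 called members 19 kept their call in all 17 alternatives and 25 in the 15 that left the call rule alone; BNIP3L, EGLN1, PKM and VHL did not, and 0 called members reversed. The median of all tested genes moved from 0.02 to 0.12 under scaling by library totals and to 0.08 under the upper quartile. The hypoxia-response members called lower, 7, became 4 under library totals alone, 3 when tested against a 1.2-fold change and 4 at an adjusted p below 0.01. The test against a 1.2-fold change left 6876 of 10605 changed genes and 3 of 6 rising glycolysis members. Member transcripts went from 37 to 24 at an adjusted p below 0.01, and changed usage from 4 members to 1 with diffSpliceDGE. With shares of counts in place of TPM, the difference in share (percentage points) became -3.43 for HK1 (main -1.87), -28.9 for PFKFB3 (-25.6), -0.32 for LDHA (-0.57) and 14.98 for PDK1 (6.79).

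With the replicate block 10010 genes, 25 member transcripts, 5 falling hypoxia-response members and 0 usage changes were called. Same-numbered libraries did not deviate together (correlations of -0.04, -0.21 and -0.12). With 3 libraries per group, these values cannot decide whether the numbers pair the samples. With each library left out in turn, changed genes ran from 9906 to 10727, falling hypoxia-response members from 5 to 8, member transcripts from 29 to 37, usage changes from 1 to 3 and the SLC16A1 share difference from -1.63 to 0.21.

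Members that were not called changed sign near 0. PDK1 went to -0.0036 with DESeq2 size factors, -0.0039 with DESeq2, -0.012 without a filter and ran from -0.077 to 0.070 with a library left out. HK2 (-0.10 to -0.020 with a library left out) went to 0.048 under library totals, 0.0076 under the upper quartile and 0.0032 without the 2 libraries that stood apart, TPI1 to 0.079 and 0.038 under those scalings and EGLN2 to 0.023 under library totals. With a library left out PFKFB4 ran from -0.013 to 0.15 and P4HA1 from -0.036 to 0.076, with -0.0042 without HOTAIR-N replicate 3. Depth limits CA9, SLC2A3 and LDHB, and PPP1R3C among the further genes, which stood on few counts.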

Other observations

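Glucose-using pathways beside glycolysis also held changes in both directions, with smaller shares called than the 71.1% of all tested genes. Among 8 tested genes of the pentose phosphate pathway 2 rose and 2 fell (50% called). PGD, which releases carbon dioxide and makes NADPH, fell to 64.4% of control (edgeR adjusted p = 1.7e-08), RPE, the epimerase of its non-oxidative arm, to 51.5% (adjusted p = 1e-07), and H6PD, its counterpart in the endoplasmic reticulum, rose 1.33-fold (adjusted p = 7.2e-05). Among 12 tested genes of gluconeogenesis and glycogen 4 rose and 3 fell (58.3% called). PCK2, the mitochondrial enzyme that makes phosphoenolpyruvate, fell to 59.6% (adjusted p = 4.6e-07) and PC, pyruvate carboxylase, to 69.8% of control (adjusted p = 1.9e-05), while PYGL, a glycogen phosphorylase, rose 1.54-fold (adjusted p = 1.2e-05).

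Of 11 tested regulators of glycolytic genes 4 rose and 1 fell (45.5% called, against 71.1% of all tested genes). PPARGC1A, a coactivator of mitochondrial genes, rose 2.22-fold (edgeR adjusted p = 8e-08), TXNIP, which limits glucose uptake, rose 1.47-fold (adjusted p = 5.7e-06), and PRKAA1, a catalytic subunit of the energy sensor AMPK, fell to 59.6% of control (adjusted p = 3.8e-07).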
